A study of Mus musculus with 20 samples.

Results

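The members described here are m6A peaks that the authors' annotation placed in an exon outside the untranslated regions (UTRs), where that exon was the last of its transcript. They were the rows annotated as exon X of Y with X equal to Y, and rows with the same coordinates were kept once. The iNKT table held 2164 such peaks among 12542 (17.3%), in 1777 transcripts and 1660 genes. The DP table held 2027 among 13450 (15.1%), in 1490 transcripts and 1392 genes. The measurement was N6-methyladenosine (m6A) in sorted mouse thymocytes, with input and m6A immunoprecipitation libraries from each genotype. Mettl3-deleted mice carried floxed Mettl3 alleles and a Cre recombinase driven by Cd4 (Mettl3fl/flCD4-cre), and wild-type mice were C57BL/6; all were 6 to 8 weeks old. The iNKT cells were sorted as 7AAD-CD1d-Tet+TCRβ+ and the DP cells as 7AAD-CD1d-Tet-CD4+CD8+. Each genotype and library type had 3 replicates in iNKT cells (12 libraries) and 2 in DP cells (8 libraries). Cre under Cd4 control becomes active around the DP stage, from which iNKT cells descend.

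Mettl3 is the catalytic subunit of the nuclear complex that methylates adenosines of messenger RNA, with Mettl14 as its partner and Wtap and the Rbm15 proteins as adaptors. The mark lies mostly in a short consensus around the letters GGACT, and it gathers around stop codons and in long exons, the last exon above all. Readers such as the Ythdf and Ythdc proteins bind it and act on splicing, export, translation and decay. The last exon of most coding transcripts holds the end of the reading frame and the whole 3′ UTR, so peaks outside the UTR class lie in its coding stretch or in transcripts with no annotated reading frame.

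The authors' deposited table of each cell type gave 1 row per peak, with a fold enrichment of immunoprecipitate over input, a peak p-value, a differential log2 fold change between the genotypes and its false discovery rate (FDR). These are the authors' values over all libraries of a cell type. No value per library was analysed, so depth is unknown and no difference below could be set against the spread between replicates. A peak was called passing when this FDR was 0.05 or less. The direction is not stated. Negative values were read as likely lower in Mettl3-deleted cells. The authors' deposited gene lists held 5339 of 5343 iNKT genes and 4336 of 4337 DP genes with a negative peak. They held none of the 1431 and 2281 genes without one. The lists thus follow the negative sign of these same values, whatever the FDR, and do not say which genotype is lower. The reading rests on that choice of sign together with the deletion removing a writer. From here on, lower and higher carry this likely direction. Mettl3 itself had no peak in either table, so the deletion could not be checked. Among 31 markers of other thymus cell types 1 gene had a member in each table, none of them passing. Purity cannot be read from this, since most genes of the other lists below held no last-exon peak either. Shares are given with Wilson 95% confidence intervals, which cover counting error only.

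Sequence could be read only where a RefSeq table of build GRCm38.p6 covered a peak. Windows of 250 bases before to 50 bases after a gene's start covered at least 30 bases of 17 iNKT and 16 DP members. The runs below show the iNKT members among them that passed, 1 run per locus, and the mature microRNAs that lay inside an iNKT member on its strand. Capitals mark GGACT in the genomic runs, and the seed, bases 2 to 8, in the microRNAs.
2810004N23Rik: ggagcacgattcGGACTccgttgagcctcc
Malat1: aggcattcaggcagcgagagcagagcagcg
Otud1: gggcccacggccgccgccccgcctgccacc
mmu-miR-6236: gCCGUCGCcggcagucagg
mmu-miR-5125: uCUGCCUGggauuuccuugu
The 2810004N23Rik run lies at chr8:124862935-124862964 on the minus strand and was centred on the motif, which does not occur on its other strand. Its peak was lower (-1.82, FDR 0.0309; the authors' deposited table, as for the other iNKT values here). The Malat1 run, at chr19:5802642-5802671 on the minus strand, is the start of that non-coding RNA, and the Otud1 run, at chr2:19658110-19658139 on the plus strand, is the start of its peak. Neither holds GGACT on either strand, and both peaks were higher in iNKT cells, Malat1 at 1.65 and Otud1 at 8.83 (log2 fold change, the authors' deposited table). Among all 30-base runs of the promoter windows, 2.68% held GGACT and 2.71% held it on the other strand. Of 36 covered stretches of members, 31 to 208 bases long, 7 held GGACT on the peak's strand and 3 on the other, and of whole 300-base windows, which are longer, 26.1% held it. The microRNA mmu-miR-6236 lies at chr9:110281353-110281371, and the peak around it was higher in iNKT cells (8.36, FDR 5.01e-70, in the authors' deposited table). The peak around mmu-miR-5125, whose mature form lies at chr17:23823339-23823358, did not pass (log2 fold change -0.31). The 2 seeds differ. These matches describe letters in short windows, and the peaks reach beyond them.

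In iNKT cells 240 last-exon peaks were lower and 91 were higher in the authors' deposited table. Lower peaks made up 11.1% of the members (9.84% to 12.5%), against 19.8% of all iNKT peaks. Higher peaks made up 4.21% (3.44% to 5.14%), against 5.84% of all iNKT peaks. Both shares were thus below the background of the table. The lower members lay in 200 genes, with a median log2 fold change of -3.79 and a range of -7.66 to -0.54. The higher members lay in 80 genes, with a median of 5.46 and a range of 0.98 to 10.1. Of the lower members 236 changed at least 2-fold, as did 90 of the higher ones. Over all 2164 members the median log2 fold change was -0.95, close to -0.98 over all iNKT peaks.

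In DP cells 3 last-exon peaks were lower and 8 were higher in the authors' deposited table. Lower peaks were 0.148% of the members (0.0503% to 0.434%), against 0.743% of all DP peaks, and higher peaks were 0.395% (0.2% to 0.777%), against 0.483%. The median log2 fold change was 0.01 over the members and 0.00 over all DP peaks. Only 3 of the 11 passing DP members changed at least 2-fold, which were Fignl1, Gcc1 and Tug1. The plot of fold change against FDR sets the members of both tables side by side.

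**Figure D1:**
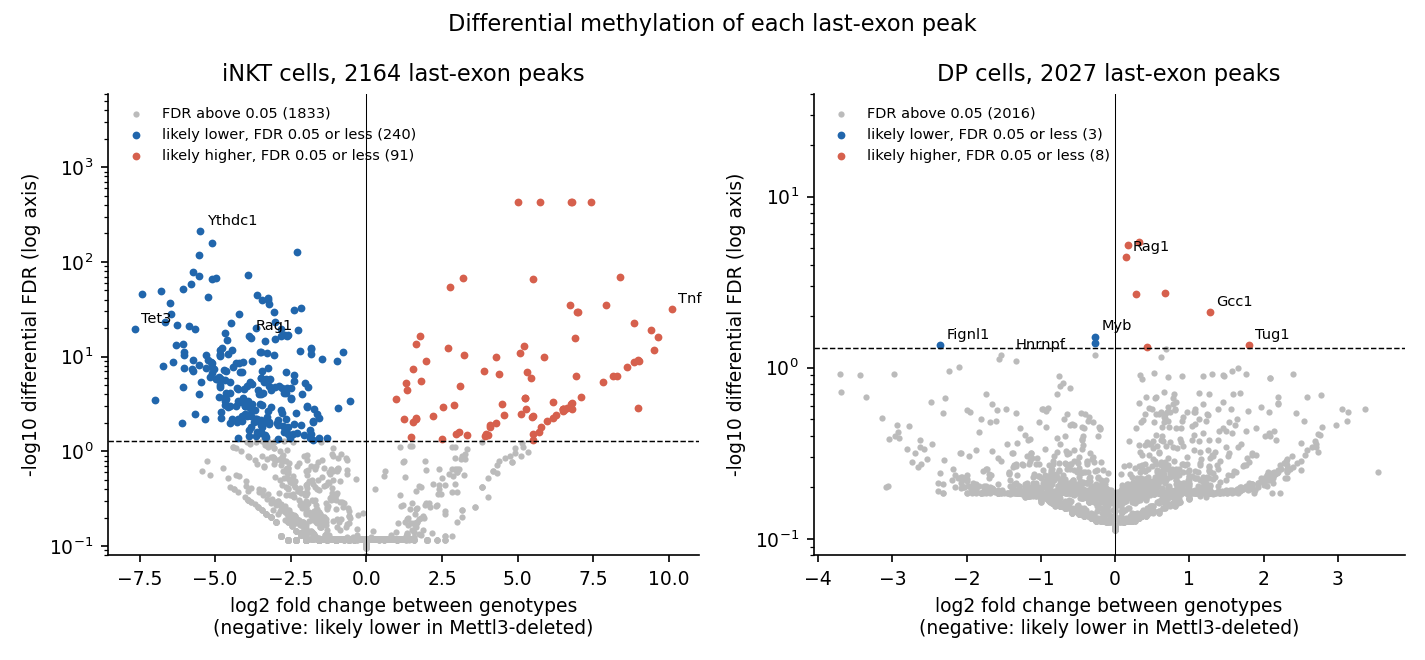
Each point is a last-exon peak in iNKT cells (left) or DP cells (right), with the log2 fold change between genotypes on the horizontal axis and -log10 of the differential FDR on a logarithmic vertical axis. The dashed line marks FDR 0.05; 240 iNKT members are lower and 91 higher, against 3 and 8 DP members, and the topmost row of points in iNKT cells is the smallest FDR the table lists, a log10 FDR of -434.

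The 3 lower DP members lay in Myb, Hnrnpf and Fignl1. Myb, a transcription factor needed for thymocyte development, had a peak of 3 blocks at chr10:21152521-21154694 with a log2 fold change of -0.27 (FDR 0.0302), in the last exon of a 3-exon transcript and 27591 nt from the 3′ end of the gene. Hnrnpf, a splicing regulator, had one at chr6:117923878-117924942 (-0.28, FDR 0.0407). Fignl1, an ATPase of recombination repair, had the largest change (-2.36, FDR 0.0447). All 3 values are from the authors' deposited table.

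The 8 higher DP members lay in 6 genes, and every one of them overlapped an iNKT last-exon peak. Malat1, an abundant nuclear non-coding RNA, held 3 of them, at 0.17, 0.33 and 0.29 (log2 fold change, the authors' deposited table). The third of these was called on the plus strand, opposite to the gene, over bases that the other two also cover, so these are not separate observations. Rag1, which cuts antigen receptor gene segments for recombination, rose by 0.15 (FDR 3.72e-05) over 2064 nt of its large coding exon. Gm4617 had 0.67 and 4930455B14Rik had 0.42. Gcc1, a Golgi tethering protein, had 1.28 (FDR 0.00759), and the non-coding RNA Tug1 had 1.80 (FDR 0.0447). Just outside the threshold were Egr1 at 0.69 (FDR 0.0513), a second and nearly identical Hnrnpf peak at -0.27 (FDR 0.0646) and Satb1 at -1.54 (FDR 0.0661). Just inside were Fignl1 and Tug1, both at 0.0447, and 4930455B14Rik at 0.0479.

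Among iNKT members, the lower peak with the smallest FDR lay in Ythdc1, the nuclear m6A reader. At chr5:86817021-86817290 it had a log2 fold change of -5.49 (FDR 1e-213) and a fold enrichment of 12.1 in the authors' deposited table. The annotated exon is the last of a short 5-exon transcript, and the peak lies 19369 nt from the 3′ end of the gene. The next 9 lower peaks by FDR were in Arhgap30 (-5.09), Malat1 (-2.28), Bhlhe40 (-5.52), Gimap4 (-5.74), Nsrp1 (-3.90), Prdm2 (-5.53), Arid1a (-4.97), Kat6a (-5.11) and Ubxn4 (-5.80). Bhlhe40 is a transcription factor of activated T cells, Gimap4 a GTPase of lymphocyte survival, and Nsrp1 a splicing factor. Prdm2 is a histone methyltransferase, Arid1a a subunit of the BAF remodelling complex, and Kat6a a histone acetyltransferase. The Prdm2 peak, of 3 blocks at chr4:143135614-143162177, was listed under Mir7021 and annotated to a transcript of 1 exon. It was named Prdm2 only as the sole RefSeq gene that spans it.

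The most negative members were Tet3 (-7.66, FDR 3.98e-20), a DNA demethylase, and Gpatch4 (-7.43). Nfe2l1, a transcription factor of proteasome genes, followed at -6.98 with a fold enrichment of 980. Arl6ip4 (-6.80), Pvr (-6.71) and Gm8995 (-6.65) completed the 6 in the authors' deposited table. The authors' symbol differed from the RefSeq gene in several of these: the Tet3 peak was listed under Bola3, the Gpatch4 peak under Naxe, the Bhlhe40 peak under 0610040F04Rik and the Arid1a peak under Pigv. Names here follow the gene number in the annotation, or a RefSeq gene that spans the peak. That name differed from the authors' symbol in 625 iNKT and 569 DP members, and 174 and 89 members had no RefSeq gene and keep the authors' symbol.

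The most positive iNKT member was in Tnf, the gene of tumour necrosis factor, at chr17:35200245-35200483, with a log2 fold change of 10.1 (FDR 1e-32) and a fold enrichment of 7.34 in the authors' deposited table. It lay in the last of 4 exons, 878 nt from the gene's 3′ end. Mir1195 (9.62), Brip1os (9.49), Haspin (9.41, a mitotic histone kinase), C920009B18Rik (8.99) and Txk (8.98, a Tec family kinase of T cell receptor signalling) followed. The -log10 peak p was 30.3 in Tnf and, in the order named, 56.1, 10, 7.82, 21.9 and 12.3 in the others. By FDR the higher members were led by the ribosomal RNA gene Rn45s on chromosome 17, a multicopy sequence whose reads cannot be placed on 1 copy. Under that symbol the authors listed 11 members, of which 10 were higher, with 7 called on the plus strand. Without them 81 members were higher (3.76%). Rps2, a ribosomal protein, had 3.19 (FDR 5.01e-69), Ltb, the lymphotoxin beta gene, had 5.50 in a peak of 60 nt listed under Mir6973a, and 9130221H12Rik had 6.72. Fold enrichment was 27.1 in Rps2 but only 1.81 in Ltb and 1.95 in 9130221H12Rik, with a -log10 peak p of 1550, 33.1 and 6.09.

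Around the threshold in iNKT cells, Tspan32 (-2.91, FDR 0.0457) and Lrrc47 (-1.76, FDR 0.0479) were just inside in the authors' deposited table. Nudt3 (-3.03) and Xist (-2.72), both at FDR 0.0501, and Itprip (-3.45, FDR 0.0513) were just outside. A large fold change alone did not bring a peak over the threshold: Gm5141 had -5.28 with a fold enrichment of 595 and an FDR of 0.163.

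Of the 7 annotated positions compared, the last exon had the smallest share of lower peaks in iNKT cells, though its interval overlapped those of first-exon and 5′ UTR peaks. Lower peaks were 13.8% of 477 first-exon peaks, 13.8% of 1843 5′ UTR peaks, 22.5% of 1570 internal-exon peaks in 1 block and 20.2% of 5243 3′ UTR peaks in 1 block, beside 11.1% for last-exon peaks. Peaks that span a splice junction, in 2 or more blocks, passed most often, with 40.4% lower among internal-exon peaks and 46.3% among 3′ UTR peaks. Of the iNKT members 98.2% lay in 1 block. In DP cells the share lower was 0.104% of 4811 unspliced 3′ UTR peaks and 0.368% of 1901 unspliced internal-exon peaks, beside 0.148% for last-exon peaks. The plot of shares by annotated position gives all classes with their intervals. No test was made between classes, since peaks of 1 gene and 1 set of libraries are not independent.

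**Figure D2:**
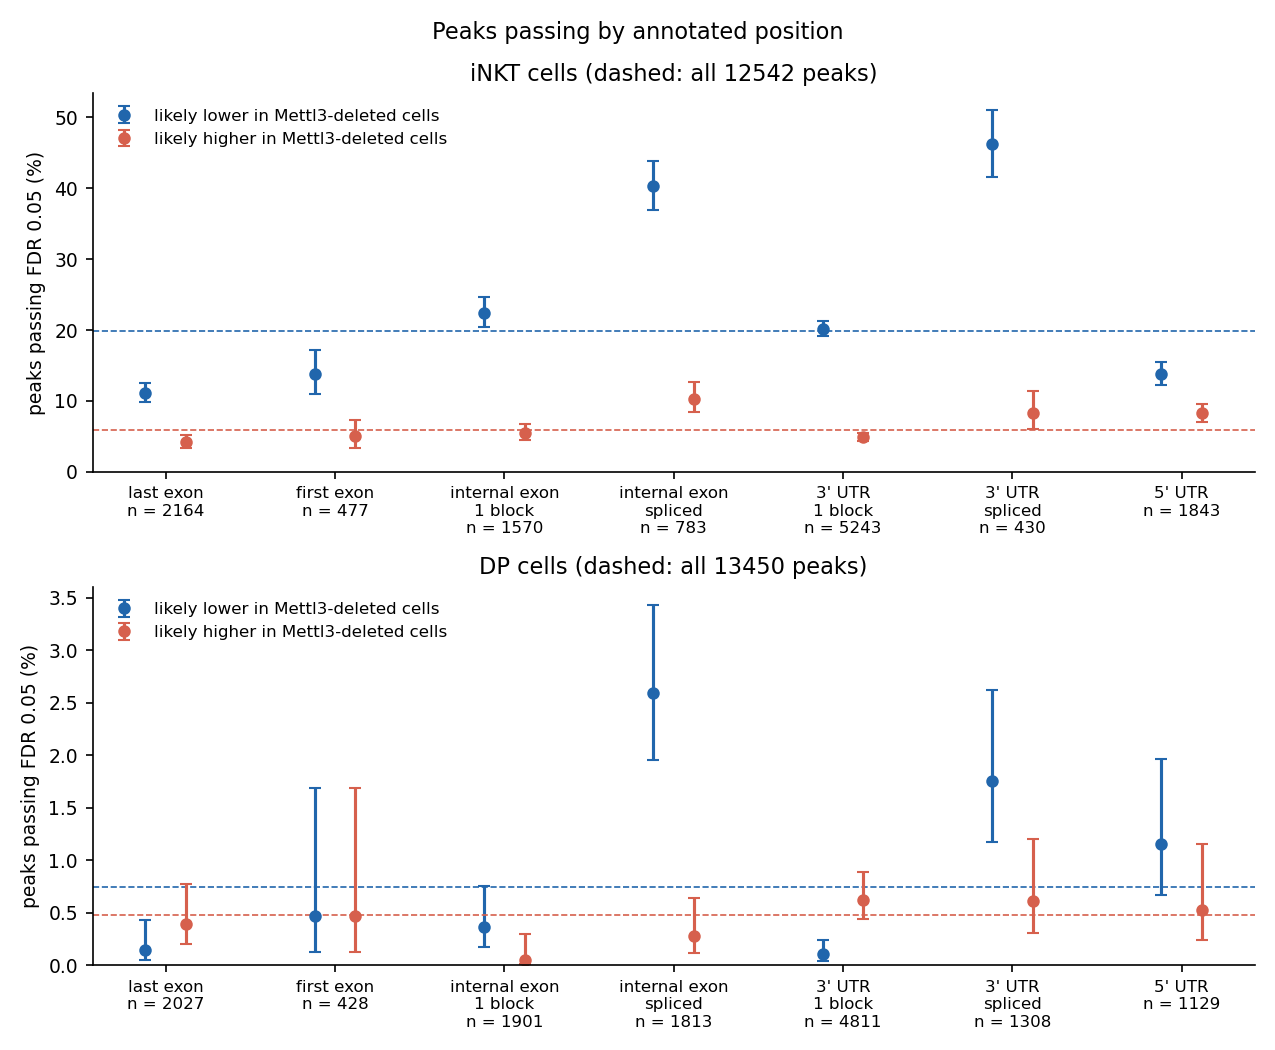
Share of peaks passing at FDR 0.05 (vertical axis, percent) in each annotated position (horizontal axis), lower in blue and higher in red, with Wilson 95% intervals, in iNKT cells (top) and DP cells (bottom, smaller scale). Last-exon peaks stand at the left, with 11.1% lower in iNKT cells, below the dashed line at 19.8% for all peaks.

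Pooled over all other positions, peaks outside last exons were less enriched, longer and more certain than last-exon peaks. The last-exon peaks had a median fold enrichment of 11 in iNKT cells, against 7.83 for peaks outside last exons, and 6.63 in DP cells, against 4.44. Their median length was 151 nt in iNKT cells, against 181 nt, and 210 nt in DP cells, against 270 nt. Their median -log10 peak p was 9.4 in iNKT cells, against 21.3, and 4.91 in DP cells, against 7.54. Single positions came close to them in iNKT cells: first-exon peaks had a median length of 151 nt and a median -log10 peak p of 10.6, and 5′ UTR peaks a median fold enrichment of 10.4. In each table they crowded into the weak end. The weakest quartile of all iNKT peaks by peak p held 38.3% of the members and the strongest 14.5%, and in DP cells these shares were 36.6% and 11.1%.

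Peak strength moved with passing. In the 4 quartiles of iNKT peak strength, from weakest to strongest, 0.121%, 2.13%, 13.5% and 52.7% of last-exon peaks were lower, against 0.173%, 2.18%, 14.4% and 63.9% of peaks outside last exons. The 2 series differed by less than 1 percentage point in each of the 3 weaker quartiles. In the strongest quartile 165 of 313 members were lower (47.2% to 58.2%), and peaks outside last exons had an interval of 62.1% to 65.6%. Among multi-exon transcripts of protein-coding genes the share there was 58.1% (51.5% to 64.5%). Higher members did not follow strength in this way, at 2.65%, 5.32%, 3.93% and 6.71% from weakest to strongest. Outside last exons these shares were 5.9%, 8.32%, 6.99% and 3.72%. Among multi-exon transcripts of protein-coding genes they were 3.43%, 6.23%, 3.66% and 2.33% (5 of 215 in the strongest). The 6.71% is 21 of 313 members and includes peaks listed under Rn45s and near-identical Malat1 peaks. Lower members had a median -log10 peak p of 231, higher ones of 12.5 and the rest of 7.71. How far peak strength accounts for the share of lower members was not tested beyond these bins.

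**Figure D3:**
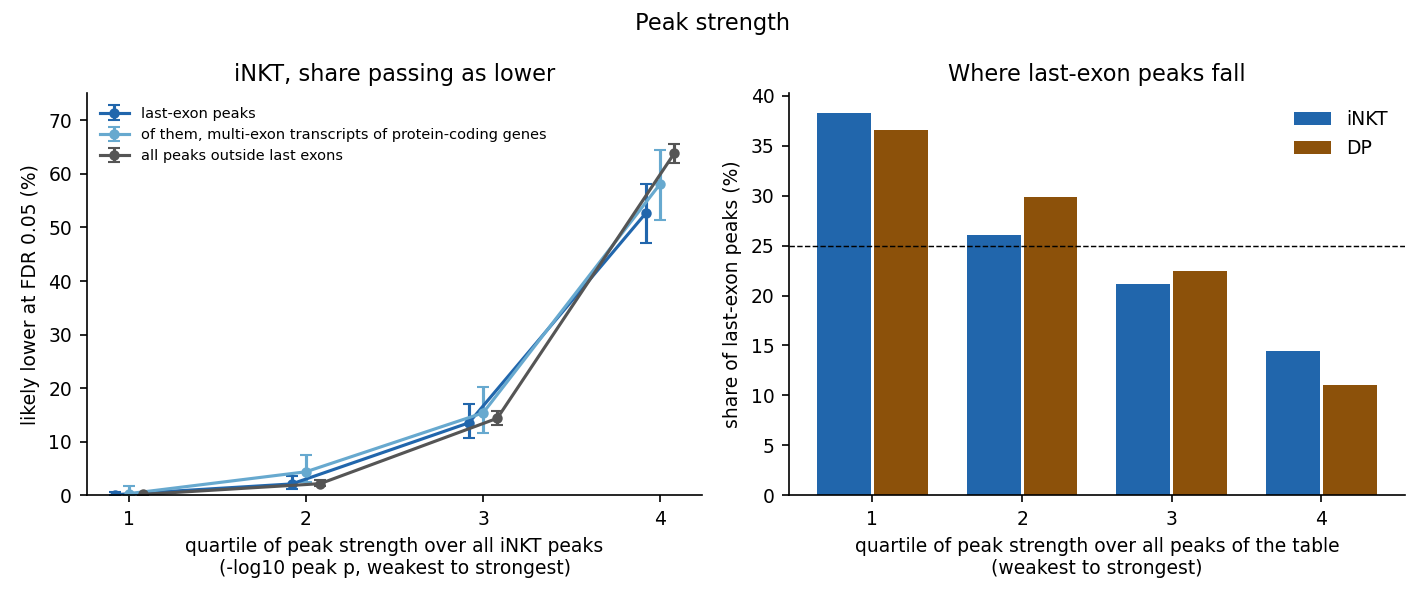
Left, share of iNKT peaks that were lower (vertical axis, percent, Wilson 95% intervals) by quartile of peak strength, for last-exon peaks, those in multi-exon transcripts of protein-coding genes, and all peaks outside last exons; the lines lie close together up to quartile 3 and reach 52.7%, 58.1% and 63.9% in quartile 4. Right, the share of last-exon peaks in each quartile (bars, percent; dashed line at 25), falling from 38.3% to 14.5% in iNKT cells and from 36.6% to 11.1% in DP cells.

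The members were of several kinds. Transcripts of a single exon, in which the last exon is the whole transcript, held 850 iNKT members (39.3%) and 511 DP members (25.2%). For these the label says little about position. Transcripts with several exons and a gene number held 1173 iNKT members (54.2%) and 1371 DP members (67.6%). Single-exon transcripts without a gene number held 681 iNKT members (31.5%), with a median fold enrichment of 20.4 and a median -log10 peak p of 6.79. Of these 3.23% were lower, against 16.2% of multi-exon transcripts with a gene number, whose median -log10 peak p was 13.9. Host genes were protein coding for 1584 iNKT and 1623 DP members, long non-coding RNA genes for 188 and 200, and pseudogenes for 126 and 59. Lower shares in iNKT cells were 13.3% in protein-coding hosts, 8.51% in long non-coding RNA hosts and 1.59% in pseudogenes. Median -log10 peak p of these 3 groups was 11.4, 6.945 and 6.01, and its part in the shares was not tested.

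The share of lower iNKT members was greater in transcripts of many exons than of few. It was 5.18% with 1 exon, 11.5% with 2, 10.2% with 3, 16.1% with 4 to 5, 16.7% with 6 to 10 and 22.8% (17.6% to 29.0%) with over 10. Median -log10 peak p over the same 6 groups was 7.31, 9.53, 9.65, 13.6, 16.9 and 17.8, and its part in the shares was not tested. The shares for 2 and 3 exons, and for 4 to 5 and 6 to 10, lay within each other's intervals. The share of higher members stayed between 2.81% and 4.84%, with no order.

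Position within the gene could be set for 952 iNKT and 1081 DP members, those of protein-coding genes with the gene's strand and span known. The median distance from the peak to the gene's 3′ end was 2856 nt in iNKT cells (quartiles 1406 and 6802) and 2951 nt in DP cells (quartiles 1409 and 5754). The final 10% of the gene held 34.2% of these iNKT members and 35.3% of these DP members. Last exon did not always mean the end of the gene, since 194 iNKT members (20.4%) and 193 DP members (17.9%) lay over 50% of the gene's length from that end. These counts include single-exon transcripts, where the label says little about position. Multi-exon transcripts held 873 of the 952 iNKT members and 1005 of the 1081 DP members, and the counts were not split by this. Of the iNKT members in the final 10% of the gene (median -log10 peak p 20.75) 21.2% were lower, against 11.3% of those in the 5′ 50% (12.9). By distance, the share was 11.9% of 42 members within 500 nt, 20% of 105 between 500 and 1000 nt, 22.4% of 201 between 1000 and 2000 nt, 18.6% of 291 between 2000 and 5000 nt and 10.5% of 313 beyond 5000 nt. Median -log10 peak p in these bins was 9.84, 15.2, 17.7, 20.4 and 11.5, lower in the nearest and farthest bins than in the 3 between, and its part in the shares was not tested.

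**Figure D4:**
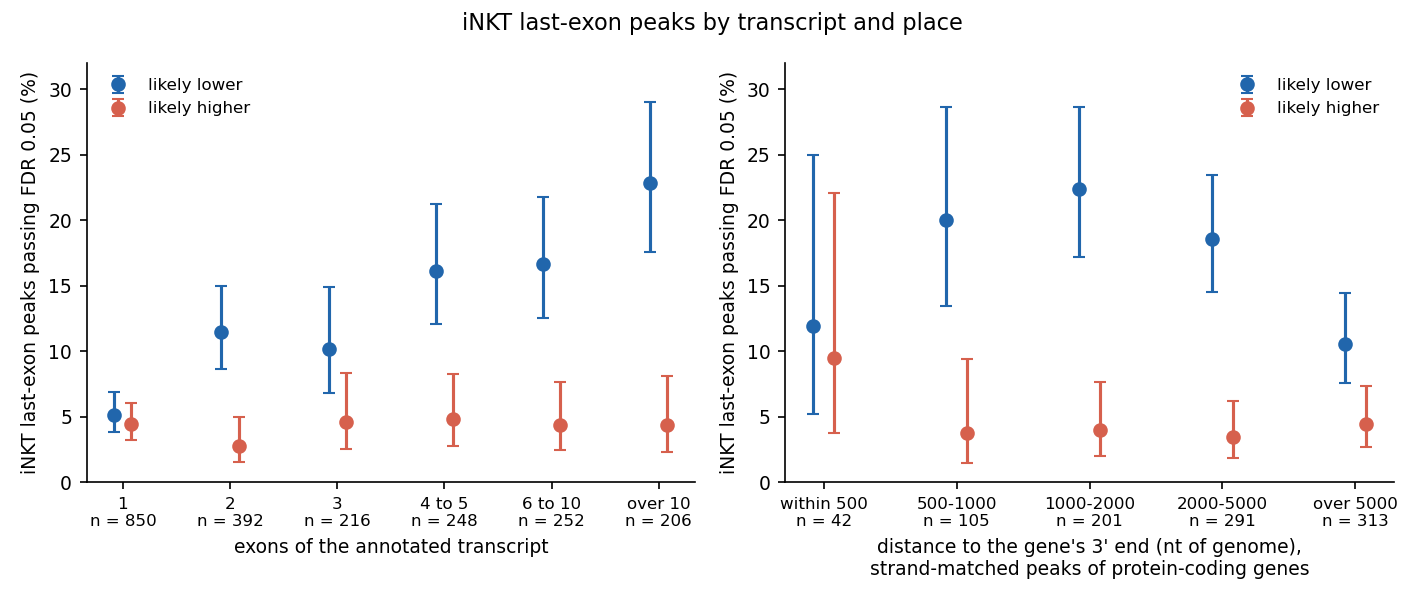
Share of iNKT last-exon peaks that were lower (blue) or higher (red) at FDR 0.05 (vertical axes, percent, Wilson 95% intervals), by the number of exons of the annotated transcript (left) and by distance to the 3′ end of the gene (right). Lower peaks make up 5.18% of members in single-exon transcripts and 22.8% in transcripts of over 10 exons, and are most frequent at 22.4% between 1000 and 2000 nt.

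Coordinates allowed 579 pairs of iNKT and DP members that share at least 1 exonic base on the same strand. They took in 539 iNKT members (24.9%) and 500 DP members (24.7%), and 2 pairs had identical coordinates. The partner had to be a last-exon peak, while 814 iNKT and 610 DP members overlapped a peak of any annotation in the other cell type. Some of the members counted below as others therefore overlapped a DP peak of another annotation. The overlap over all peaks was not computed, so these shares have no background. Of the shared iNKT members 21.5% were lower and 2.6% higher, against 7.63% and 4.74% of the 1625 others. The shared members were also stronger, with a median -log10 peak p of 28.2, against 7.71. Their median log2 fold change was -1.18 in iNKT cells and 0.08 in DP cells. Over the pairs the log2 fold changes had a Pearson r of -0.06 and the log2 fold enrichments one of 0.02. These points share peaks and genes, and each table comes from its own libraries and fit. The labels name a standard and a low-input protocol without saying which cells went through which, so cell type and protocol cannot be told apart.

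Rag1 shows the contrast in 1 exon. In the authors' deposited tables its iNKT peak of 300 nt, at chr2:101642139-101642438, had a log2 fold change of -3.87 (FDR 3.16e-17), and the DP peak that contains it had 0.15. Likewise 4930455B14Rik had -4.22 in iNKT cells and 0.42 in DP cells, and Gm4617 had -3.45 and 0.67, each passing in both tables. Gcc1 and Tug1, higher in DP cells, had overlapping iNKT peaks of -1.80, -1.10 and -1.33 that did not pass. Of the most negative iNKT members with a DP partner, Tet3 had 0.09 in DP cells, Nfe2l1 had 0.08, Arl6ip4 had -0.11 and Gm8995 had 0.72, none of which passed. The difference between cell types was not tested, since the tables were fitted separately. The plot of shared peaks shows the spread.

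**Figure D5:**
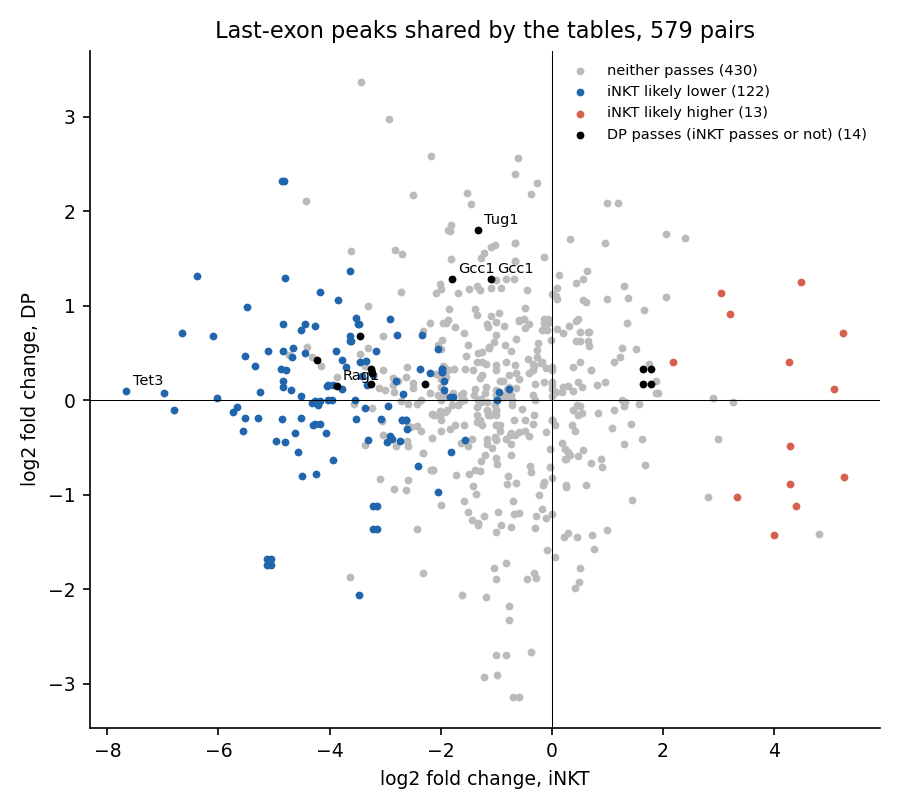
Each point is a pair of overlapping last-exon peaks, with the log2 fold change in iNKT cells on the horizontal axis and in DP cells on the vertical axis. Points of lower iNKT peaks reach -7.66 on the left while their DP values lie on both sides of 0, and the pairs in which DP passes (black) lie above 0.

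Malat1 carried changes of both signs along 1 transcript. In iNKT cells its peaks at chr19:5801054-5801533 and chr19:5802013-5802163 were lower (-2.28 and -3.26) in the authors' deposited table. The peak of 120 nt at its 5′ end, which holds the run printed above, was higher (1.65), as was a copy 1 base longer (1.78). Fold enrichment was 3.84 and 1.80 at the lower peaks and 7.74 at the higher one. In DP cells a single peak of 1619 nt covers all of these.

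Of 286 iNKT transcripts with several members, 39 had at least 2 that passed. In 31 of them all passing members were lower, in 3 all were higher, and in 5 both signs occurred. The 5 were Malat1, Xist, Ep300, Zfp212 and Kidins220. Overlapping peaks were not merged in these counts, so some members of 1 transcript are the same site called more than once. Members of 1 sign in a transcript are therefore not separate observations. Xist, the RNA that silences an X chromosome, had lower peaks of -4.18 and -4.26 and a higher one of 1.65 (FDR 0.00537). Ep300, a histone acetyltransferase, had -4.08 at chr15:81649259-81649678 and 1.80 at chr15:81650518-81650758, in the same exon. Zfp212, a zinc finger protein, had -3.32 and 5.08, and Kidins220, a scaffold of receptor signalling, had -5.67 and 4.28. In Ep300 and Kidins220 the lower peak was the more certain, with a -log10 peak p of 768 against 25, and of 325 against 5.37. Otud1, a deubiquitinase, had 8.83 at its 5′ peak and -1.97 (FDR 0.524) at the other.

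Among other genes with many members, Neat1, a nuclear non-coding RNA that builds paraspeckles, had 6 iNKT members and 4 lower. They were 2 nearly identical pairs, at -1.98 (both) and at -3.21 and -3.22, so 2 sites carry them. Gm8995 had 9 iNKT members, 6 of them lower, and 14 DP members, none passing. Few DP members passed at all (0.148% lower and 0.395% higher). Kcnq1ot1 had 7 iNKT members, Srcap 8 and Sfpq 8 DP members; none passed in Kcnq1ot1 and Sfpq, and 2 nested Srcap peaks were lower.

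For 210 genes with both a last-exon and a 3′ UTR peak in iNKT cells, the 2 kinds had near-equal medians. The annotation of 3′ UTR peaks holds no gene number, so they were named by the authors' symbol, unlike the last-exon peaks. That symbol can be another gene than the one that holds the peak, so some pairs may be mismatched or missed. The median log2 fold change was -1.12 in the last exon and -1.11 in the 3′ UTR, using each gene's median in the authors' deposited table. Within genes the difference, last exon minus 3′ UTR, had a median of -0.01 and quartiles of -1.53 and 1.76. The last exon was more negative in 106 genes and less negative in 104. It held a lower peak in 58 genes, the 3′ UTR in 73, and both in 28. The 3′ UTR peaks were stronger, with a median -log10 peak p of 45.9, against 20.6 in the last exon. In 217 DP genes the median difference was 0.05.

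Genes with both kinds lower included Nedd9, an integrin-signalling scaffold, at -6.48 in the last exon and -2.55 in the 3′ UTR. Ubxn4 had -5.80 and -3.98, Ythdc1 -5.49 and -1.48, Rbm15b, an adaptor of the m6A writer, -4.57 and -2.78, and Notch1, the receptor that commits thymocytes to the T lineage, -3.71 and -2.11. In 16 genes the signs of passing peaks were opposite. Zdhhc20, a protein palmitoyltransferase, had 5.49 in the last exon and -5.54 in the 3′ UTR, and Ubxn1 had -2.67 and 7.30. The last-exon peak of Zdhhc20 was weak, with a -log10 peak p of 4.15 against 143. All these values are from the authors' deposited table, the 3′ UTR values of Rbm15b and Notch1 as medians of 3 peaks each. All 3 were lower in Rbm15b and 1 in Notch1.

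Lists of genes by function are described by counts, each beside 11.1% of iNKT members lower. Over all DP members 0.148% were lower and 0.395% higher, so a list with none passing in DP cells is near that background. Of 94 chromatin regulators 17 genes had 41 iNKT members, of which 13 in 11 genes were lower (31.7%) and 1 was higher. The median -log10 peak p of these 41 was 62.2, against 9.4 over all members. Besides Tet3, Kat6a, Arid1a and Ep300, the lower ones lay in Crebbp (-5.17 and -2.04), the partner of Ep300, in Arid1b (-4.95), in the methyltransferase Nsd1 (-4.05) and in Kat6b (-3.25). Asxl1 (-2.83), Srcap (-2.69) and Setd1b (-1.94) were also lower in the authors' deposited table. In DP cells 18 genes of the list had 28 members and none passed, near the share over all DP members.

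Genes of the m6A pathway had 4 iNKT members, and 3 were lower, with a median -log10 peak p of 31.7 over the 4. The lower ones lay in Ythdc1, Wtap at -4.69 (FDR 1.82e-06) and Rbm15b at -4.57 (FDR 2.51e-11), in the authors' deposited table. The demethylase Fto had the other, at 0.29. Of 14 members in genes of RNA-binding and splicing proteins 5 were lower and 1 higher, with a median -log10 peak p of 42.9 over the 14. The lower ones were Rbmx2 (-4.64), Rbm15b, Hnrnpl (-3.45), Srsf4 (-3.25) and the helicase Ddx42 (-2.81), with the helicase Ddx50 higher at 6.49. Hnrnpl had 2 higher peaks in its 3′ UTR.

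Immediate early genes, which respond within minutes of receptor signals, had 10 iNKT members and 4 lower. The median -log10 peak p of these 10 was 64.2. Csrnp1 had -3.62 (FDR 1.26e-45), Egr1 had -2.79 and -2.34, and Zfp36l2, a protein that drives decay of AU-rich messages, had -1.48. None of the 8 DP members of the list passed, near the share over all DP members. Thymocyte and iNKT transcription factors had 22 iNKT members, of which 4 were lower and 1 was higher, with a median -log10 peak p of 24.5. Notch1 had -3.71, Hivep3 had -2.94, and Bcl11b, which fixes T cell identity, had -2.39 and -1.85. Sox4, an HMG-box factor, was higher at 1.32 in its single exon, and its 3′ UTR peak was lower at -2.45. Of 16 DP members of this list Myb passed.

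Zinc finger genes named Zfp had the most members, 258 in 143 genes in DP cells and 80 in 53 genes in iNKT cells. None passed in DP cells, near the 0.148% lower and 0.395% higher of all DP members. In iNKT cells 10 were lower (12.5%), near the 11.1% of all members, and 5 were higher (6.25%). Zfp777 was the highest at 7.92 and Zfp579 the lowest at -5.67 in the authors' deposited table. These genes tend to hold their whole zinc finger array in 1 long last exon.

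The other lists had few passing members. Among antigen receptor recombination genes Rag1 was lower in iNKT cells and higher in DP cells, and Dclre1c (-3.39) and Rag2 (-0.58) did not pass in iNKT cells. Smad7, an inhibitor of TGF-beta signalling, was the 1 lower of 6 iNKT members of cytokine genes (-4.84). Txk was the 1 higher of 8 members of T cell receptor signalling genes, and Rps2 the 1 higher of 14 members of ribosomal protein and translation factor genes. The single histone gene member of each table did not pass.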

How the data were processed

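Polyadenylated RNA fragments of about 150 nt from sorted iNKT and DP thymocytes were immunoprecipitated for m6A, per the labels' protocols. The submitters' processing notes name STAR 2.6.0a, HOMER 4.9.1, RSEM 1.3.0, Trim Galore 0.6.5 and FastQC 0.11.5, and build mm10. The columns are named as by exomePeak, and the peak caller itself is not given in the sources used here. Per the file headers, the authors deposited for each peak a p-value, a fold enrichment (linear ratio), a log2 fold change between genotypes, log10 p-values and FDRs (treated as scores), and text annotation. The authors also deposited gene lists, used for the likely direction alone.

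From these, repeated coordinates were removed (24 iNKT and 5 DP rows, 3 of them members), members were found by their annotation, and the authors' differential FDR of 0.05 was counted by sign. No test was added, since no values per library were given. Peaks matched at 1 shared exonic base on 1 strand. Strength quartiles were cut on peak p over all peaks of a table. Start coordinates were converted to 1-based. Genes, spans and strands came from RefSeq (GRCm38.p6): 1332 iNKT and 1516 DP members matched by gene number, 382 and 250 by a symbol whose span holds the peak, 276 and 172 as the only spanning gene. On genes of known strand, 122 of 1460 iNKT and 70 of 1485 DP members lay on the opposite strand, and nearby members on both strands may share reads. The parser and overlap code were tested on simulated rows. Software was Python 3.11.15, pandas 2.3.3, numpy 2.4.6, SciPy 1.17.1 and matplotlib 3.10.9.

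Named genes were, per table, the 10 smallest FDRs of each sign, the 6 most negative, most positive and most enriched members, up to 6 passing members per gene list, the 6 shared members with the smallest FDR, 3 on each side of FDR 0.05, and up to 5 genes with most members. One item that this rule names is not reported here. The paired 3′ UTR examples, the transcripts of both signs, Neat1, Xist and the printed sequences were chosen after their values were seen. Members and lists were chosen with earlier results of these data known. Alternatives changed the FDR threshold, a fold minimum, repeated rows, single-exon transcripts, enrichment and peak FDR minimums, naming, blocks, sign, overlap and peaks per gene.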

Additional observations from a re-analysis of the deposited data

How the results depend on the processing

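The share of iNKT members lower, 11.1%, became 9.47% at an FDR of 0.01, 14.9% without single-exon transcripts, 17.4% among peaks with a peak FDR of at most 1e-05 and 13.1% within the span and strand of the named gene. With the sign turned it was 4.21%, and the share higher 11.1%; the share higher was 5.30% at the stricter peak FDR. For transcripts with a gene number only, an alternative chosen after seeing the data, 15.8% were lower. In DP cells the share lower was 0% at an FDR of 0.01, which leaves none of the 3 peaks, and 0.0493% with at least a 2-fold change. The DP share higher was 0.0987% with a 2-fold change, 0.198% without single-exon transcripts, 0.198% with a gene number only, 1.02% at the stricter peak FDR and 0.148% with the sign turned. With 1 peak per gene the median fold enrichment was 7.13 in DP and 13.2 in iNKT cells, and the DP median length was 239 nt. The cause was not tested, except that each setting leaves a different set of peaks. Repeated rows kept, 1 peak per locus (chosen after seeing the data), a fold enrichment of at least 2 and members in 1 block moved none of the 4 shares out of its interval. No paired analysis was possible because the tables hold no values per library, and no replicate could be left out. Depth is unknown, so weak peaks that did not pass cannot be told from peaks that did not change.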
